A study of Mus musculus with 4 samples.

Results

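The transcriptome of the toxin-injured mouse retina was compared between day 5 and day 1 after injury, gene by gene, and each change was set beside the change between the same days in control retinas. The genes are those listed in the day 1 injured library analysed here, which holds 5799 of the 22558 gene symbols of the other libraries, from chromosomes 1, 10, 11, 12 and 13 and from chromosome 14 up to position 41780096 (mouse build mm9). Leaving out 223 small RNA symbols (Mir, Snor and Scarna) left 5576 genes. Chromosomes X and Y are outside this set, so the sex of the mice was not compared. Of the 5576 genes, 5564 had an estimate in both injured libraries, and 2627 of these reached 5 FPKM (a fragment count corrected for transcript length and library size) in at least one of them.

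Injured mice had the genotype Msi1-CreERT2/+; R26R-DTA/+ and control mice +/+; R26R-DTA/+, all at about 8 weeks of age on a mixed background of C57BL/6 and 129. R26R-DTA encodes the A fragment of diphtheria toxin (DTA) behind a stop that Cre removes, so every mouse carried the toxin allele and the injured mice alone carried a Cre. CreERT2 needs an estrogen receptor ligand to act, and the labels do not name the ligand, its dose or whether controls received it. The Cre is driven by Msi1, the gene of the RNA-binding protein Musashi 1; which retinal cells express it was not measured. There were 4 libraries of whole retina, 1 per group: control at day 1, control at day 5, DTA at day 1 and DTA at day 5. How many mice or retinas went into a library is not given.

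When photoreceptors are damaged, Müller glia, the radial support cells that span the retina, enter a reactive state marked by the intermediate filament GFAP and by signalling through interleukin-6 family cytokines, STAT3 and its inhibitor SOCS3. Microglia, the resident macrophages, leave the inner layers, take up debris and release chemokines that attract monocytes. Interferon regulated GTPases and antigen presentation genes are commonly induced in the same tissue, and the transcripts of rods and cones decline as these cells are lost.

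With 1 library per group there is no replicate, no standard deviation and no test, so a difference is described by its size. Differences are day 5 minus day 1 of log2(FPKM + 1). The call of a higher or lower gene required that the difference be at least 1 in size and that the gene reach 5 FPKM in at least one of the 2 libraries compared. It was called beyond the control change when, in addition, the DTA difference exceeded the control difference of the same gene by at least 1 in the same direction. The smallest FPKM steps correspond to a depth of about 99000000 fragments for DTA at day 1 and 28800000 for DTA at day 5, against 73500000 and 35500000 for the controls. The authors' confidence bounds, which cover the counting and assignment of fragments in 1 library and not the spread between mice, had a median half-width of 3.90% of the FPKM in DTA at day 1 and 6.95% at day 5 for genes at 5 FPKM or more.

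Between day 1 and day 5 in the injured retina, the called genes that rose included the phagocyte genes Fcer1g, Cd68 and Lyz2, the chemokines Ccl2 and Ccl5, the reactive glia genes Serpina3n and Gfap and the interferon-regulated GTPase Igtp. Those that fell included the photoreceptor genes Pdc, Rcvrn, Pde6g and Reep6 and the glial enzyme gene Glul. Of 2627 genes, 48 were higher at day 5 in DTA (1.83%) and 57 were lower (2.17%). At these shares a list with few genes at the floor would often hold no called gene. A list or family without a call is therefore not shown to be unchanged. By the same size rule the controls had 4 higher (0.162%) and 30 lower (1.21%) of 2474 genes, 1.37% in all. Beyond the control change 40 genes were higher (1.52%) and 38 lower (1.45%) of the 2623 with an estimate in all 4 libraries, 2.97% in all. After scaling by the median ratio of expressed genes the split was 31 higher and 47 lower. Among the 40 higher genes, 13 belonged to lists of microglia, leukocyte, chemokine, interferon or reactive gliosis genes and none to a photoreceptor list. At the floor these lists held 6 microglia, 0 other leukocyte, 3 chemokine, 10 interferon and 4 reactive gliosis genes. Among the 38 lower genes, 10 belonged to photoreceptor lists and 9 to the lens list. At the floor the photoreceptor lists held 6 rod, 17 structure, 3 cone and 3 transcription factor genes, with Thrb in both of the last. The lens list held 9. The lists were chosen with earlier results of these data known, so these counts only describe the called genes.

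The median difference over the 2623 genes was 0.14 in DTA and -0.07 in control. Median ratio scaling brought these to 0.02 and 0.00, so a DTA difference near 0.1 lies within what the choice of scaling moves. Over all 5560 genes measured in the 4 libraries, with no floor, the medians were 0.05 and -0.01, and these stand as the reference for the medians of gene lists below. A difference above 0 in DTA was found for 59.6% of these genes and for 67.8% of the genes at the floor, which is the reference for the counts of members above 0.

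**Figure D1:**
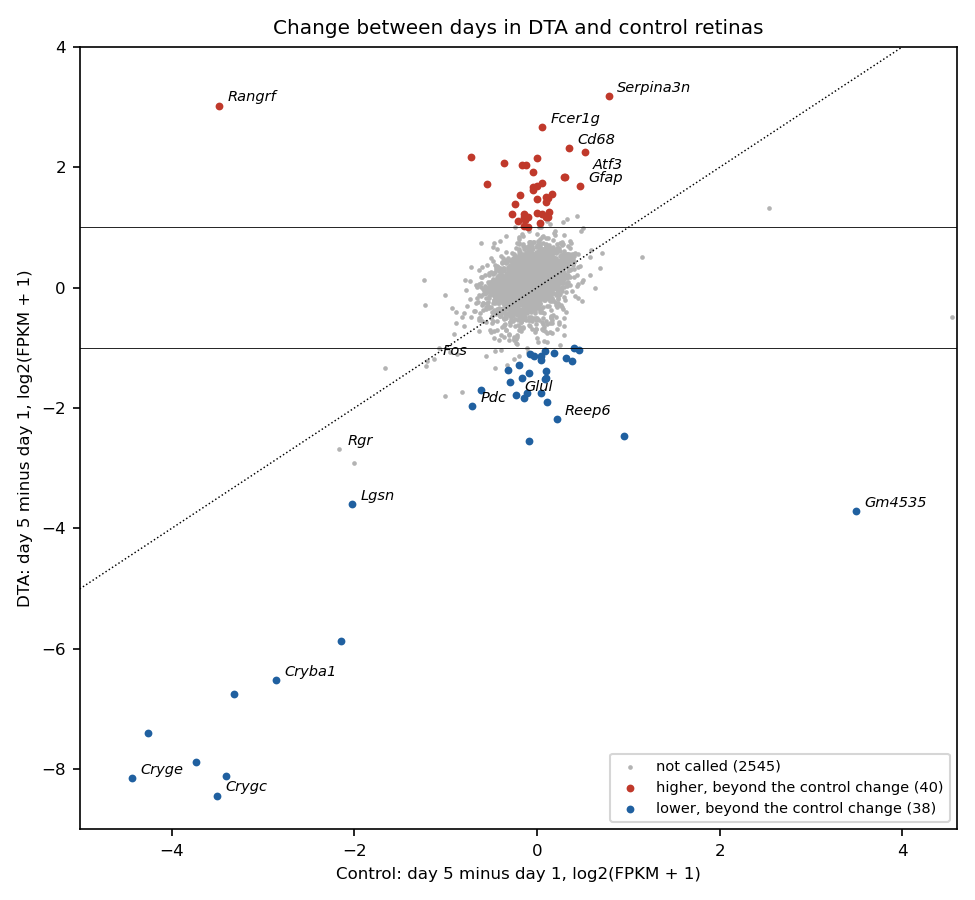
Change from day 1 to day 5 in DTA (vertical axis) against the change in control (horizontal axis), both as differences of log2(FPKM + 1), for the 2623 genes at 5 FPKM or more in a DTA library. Red and blue points are the 40 higher and 38 lower genes beyond the control change, the dotted line marks equal change, and the thin lines mark a DTA difference of 1; lens crystallins lie at the lower left, below the line of equal change.

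The largest differences of all belonged to crystallin genes, listed here as markers of the lens, a tissue that adjoins the retina. Whether these transcripts came from lens or from retinal cells was not tested. Of 12 lens markers 10 were in the set, and 9 were lower in DTA at day 5 and 9 lower in control at day 5. Crygc, a gamma crystallin, stood at 227 FPKM in control at day 1, 19.1 in control at day 5, 493 in DTA at day 1 and 0.421 in DTA at day 5. The summed level of the 10 markers was 1114 and 111 FPKM in control and 2325 and 4.92 FPKM in DTA, in the order day 1 and day 5. The day 1 DTA library was thus the highest of the 4 for these markers and the day 5 DTA library the lowest. The list's median difference was -7.08 in DTA and -3.36 in control. The gamma crystallins are near-identical copies on chromosome 1, so the split of fragments among Cryga, Crygb, Crygc, Crygd, Cryge and Crygf is uncertain.

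Markers of the retinal pigment epithelium, the layer behind the photoreceptors, also moved with the day in both genotypes. Rgr, an opsin of that layer, stood at 48.7 and 10.1 FPKM in control and at 29.3 and 3.74 FPKM in DTA. Rdh5, a retinol dehydrogenase of the visual cycle, stood at 17.5 and 4.83 FPKM in control and at 10.9 and 3.70 FPKM in DTA. The 4 markers measured had a median difference of -1.30 in DTA and -1.51 in control, and neither Rgr nor Rdh5 was called beyond the control change. Among red blood cell markers Hba-a1, an alpha globin, stood at 56.5 and 23.6 FPKM in control and 58.5 and 47.7 FPKM in DTA. The part of these tissues in other results was not tested.

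**Figure D2:**
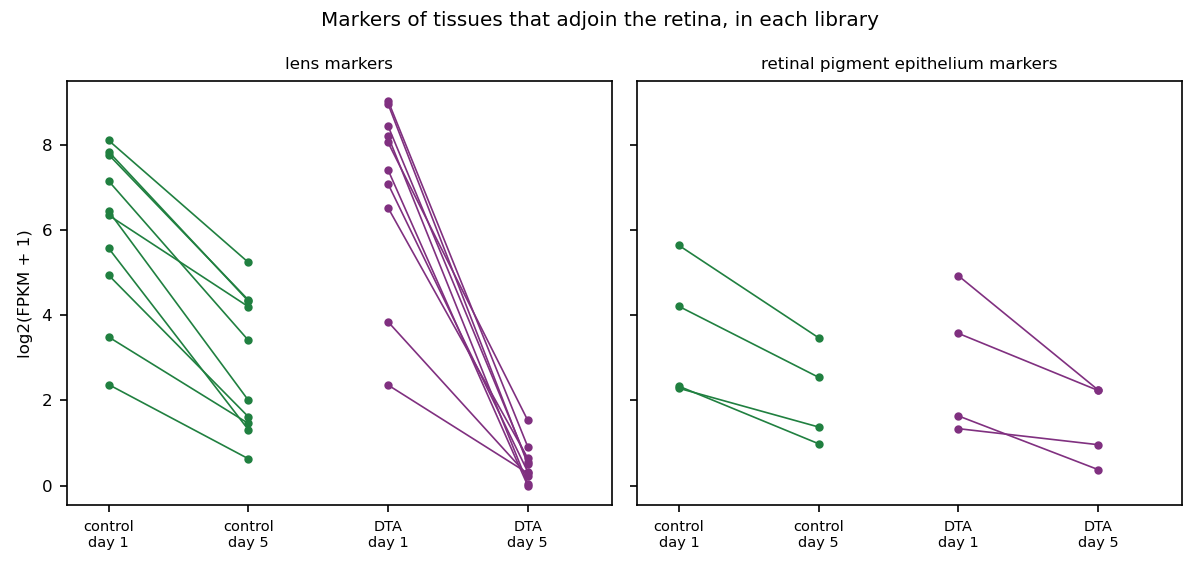
Level as log2(FPKM + 1) of the 10 lens markers and the 4 pigment epithelium markers in each of the 4 libraries, with lines joining the 2 days of a genotype (green control, purple DTA). Every marker is lower at day 5 than at day 1 in both genotypes, and the lens markers of DTA fall furthest.

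Photoreceptor genes differed among themselves, and 10 were lower at day 5 beyond the control change. Of 19 genes of rod phototransduction 6 were in the set and 3 were lower beyond the control change, with a list median of -0.95 in DTA and 0.11 in control. Pdc encodes phosducin, which binds the beta and gamma subunits of transducin (chromosome 1, 152166547 to 152181036). It stood at 2003 and 1221 FPKM in control and at 1635 and 417 FPKM in DTA, 3.92-fold lower at day 5. Part of this gene overlaps 2310030A07Rik, whose fragments cannot be separated with certainty. In a bulk sample, fewer rods and less RNA per rod cannot be told apart.

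Rcvrn encodes recoverin, the calcium sensor that restrains rhodopsin kinase (chromosome 11, 67508828 to 67516857). It stood at 925 and 994 FPKM in control and at 904 and 345 FPKM in DTA, 2.62-fold lower at day 5. Pde6g, the inhibitory subunit of the rod phosphodiesterase, stood at 1709 and 2224 FPKM in control and at 1610 and 689 FPKM in DTA, 2.34-fold lower. At day 1 both transcripts in DTA were close to, and just below, the control of that day, and at day 5 they were the lowest of the 4 libraries.

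The other 3 phototransduction genes were not called. Rgs9, which speeds the shutoff of transducin, stood at 248 and 154 FPKM in DTA, a difference of -0.68. Gucy2e, the guanylate cyclase that restores cyclic GMP, stood at 103 and 67.2 FPKM, a difference of -0.61. Sag, rod arrestin, stood at 1149 and 1559 FPKM in control and at 1412 and 1444 FPKM in DTA, so that this abundant rod transcript was nearly level between the days while Pdc, Rcvrn and Pde6g were not.

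Genes of photoreceptor structure and maintenance showed the same spread. Of 26 listed 17 were in the set, 6 were lower in DTA and 4 of these beyond the control change, with a list median of -0.55 in DTA and 0.09 in control. Reep6, a protein of rod membrane trafficking (chromosome 10, 79792890 to 79799186), stood at 473 and 549 FPKM in control and at 296 and 64.1 FPKM in DTA. Its level was 4.62-fold lower at day 5 than at day 1, and it was already below both controls at day 1. Rdh12, a retinol dehydrogenase of the inner segment, stood at 185 and 198 FPKM in control and at 184 and 64.0 FPKM in DTA, 2.88-fold lower.

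Pitpnm3, a phosphatidylinositol transfer protein linked to cone dystrophy, stood at 61.9 and 58.1 FPKM in control and at 37.8 and 13.6 FPKM in DTA. Fscn2, the retinal actin bundler, stood at 62.2 and 77.5 FPKM in control and at 65.7 and 28.7 FPKM in DTA. Both were lower beyond the control change, with differences of -1.41 and -1.17. Crb1, a polarity protein of the outer limiting membrane, and Nxnl2, a thioredoxin-like factor of photoreceptor survival, were lower in DTA by the size rule (-1.14 and -1.13), though control differences of -0.19 and -0.55 kept them from being called beyond the control change; Crb1 was called so under both scalings.

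Several members of the list did not share this decline. Mak, a kinase of the photoreceptor cilium, stood at 58.1 and 64.0 FPKM in control and at 70.7 and 116 FPKM in DTA, a difference of 0.71. Pcdh15, a protocadherin of Usher syndrome, stood at 20.1 and 20.9 FPKM in control and at 38.3 and 60.5 FPKM in DTA, a difference of 0.65. Aipl1, the chaperone of the phosphodiesterase, stood at 407 and 470 FPKM in DTA, and Rp1, a microtubule protein of the axoneme, at 312 and 301 FPKM. Unc119, which carries lipid-modified transducin, did decline, though it was not called. It stood at 1125 and 769.5 FPKM in DTA, and its difference of -0.55 is the median of the list.

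Among photoreceptor transcription factors 5 of 14 were in the set and 2 were lower beyond the control change. Esrrb, a nuclear receptor of rods (chromosome 12, 87702067 to 87862578), stood at 142 and 128 FPKM in control and at 149 and 40.9 FPKM in DTA, 3.63-fold lower at day 5. Mef2c, a MADS box factor, stood at 20.6 and 19.0 FPKM in control and at 14.7 and 3.66 FPKM in DTA, 4.01-fold lower. For both genes DTA at day 5 was far below the other libraries. Prdm1, a repressor that holds the photoreceptor fate against the bipolar fate, stood at 3.96 and 2.03 FPKM in DTA, under the floor.

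Of 13 cone genes 4 were in the set. Gngt2, the cone transducin gamma subunit, stood at 103 and 117 FPKM in control and at 106 and 49.2 FPKM in DTA and was lower beyond the control change (-1.09); its locus overlaps Abi3. Rxrg, Cnga3 and Thrb, a nuclear receptor, the cone channel subunit and the thyroid hormone receptor of cones, had differences of -0.50, -0.47 and -0.13 and were not called. All 4 were below 0 in DTA and above 0 in control.

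Among Müller glia genes Glul was lower, and among reactive gliosis genes Serpina3n and Gfap were higher. Glul, glutamine synthetase, converts glutamate taken up from synapses into glutamine (chromosome 1, 155747075 to 155756844). It stood at 1044 and 888 FPKM in control and at 550.0 and 159 FPKM in DTA, 3.46-fold lower at day 5 than at day 1. Of the 7 homeostatic genes measured, of 18 listed, all were below 0 in DTA and all below 0 in control, with medians of -0.63 and -0.25. Timp3, an inhibitor of metalloproteinases whose locus overlaps Syn3, was lower by the size rule at 34.5 and 16.7 FPKM in DTA. It stood at 32.8 and 15.1 FPKM in control. Glul was the only one of the 7 called beyond the control change. Kcnj10, the potassium channel of Müller end feet, stood at 12.4 and 11.4 FPKM in DTA and Aldoc, an aldolase, at 209 and 178 FPKM. Sox9, a transcription factor of Müller glia, stood at 5.53 and 4.50 FPKM in control and at 12.5 and 6.63 FPKM in DTA, a difference of -0.83.

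Of 19 reactive gliosis genes listed 5 were in the set, 4 had an estimate in both DTA libraries and 2 were higher beyond the control change, with a median of 1.34 in DTA and 0.49 in control. Serpina3n, a protease inhibitor of reactive astrocytes and Müller glia (chromosome 12, 105644918 to 105652539), stood at 1.47 and 3.27 FPKM in control and at 10.8 and 107 FPKM in DTA. This step was 9.87-fold, and its difference of 3.19 was the highest on the log2(FPKM + 1) scale; with a pseudocount of 0.1 Rangrf, Fcer1g and Madcam1, which start from lower levels, were above it. Gfap (chromosome 11, 102748650 to 102758514) stood at 4.66 and 6.85 FPKM in control and at 20.7 and 68.5 FPKM in DTA, 3.32-fold higher at day 5. Both genes were above both controls at day 1 and higher again at day 5.

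Socs3, which restrains cytokine signalling through STAT3, stood at 0.941 and 1.75 FPKM in control and at 15.4 and 31.8 FPKM in DTA. Its difference of 0.996 fell just under the size rule. On the log2(FPKM + 1) scale most of its distance from control was already present at day 1. Ngfr, the p75 neurotrophin receptor, stood at 12.4 and 11.6 FPKM in DTA. Stat3 had no estimate in either DTA library, and the authors' status for it was a failed fit. Lif, the cytokine leukemia inhibitory factor that drives this pathway (chromosome 11, 4157571 to 4172517), stood at 0.206 and 0.248 FPKM in control and at 1.93 and 5.87 FPKM in DTA. It was higher beyond the control change (1.23) but not with a pseudocount of 5 (0.65). Il6st, the shared receptor subunit gp130, stood at 22.7 and 36.3 FPKM in DTA, a difference of 0.65, and the list of 8 measured interleukin-6 family and STAT feedback genes had a median of 0.08.

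Of 28 microglia and macrophage genes listed 19 were in the set, and 5 were called higher. All 19 differences were above 0 in DTA (59.6% of all genes were), against 9 of 19 in control, and the median was 1.11 in DTA and -0.03 in control. Only 6 of the 19 reached the floor, and 5 of these were higher beyond the control change. The summed level of the 19 was 20.7 and 17.6 FPKM in control and 19.9 and 84.1 FPKM in DTA, so the day 1 DTA library lay between the 2 controls and the day 5 DTA library far above them. Fcer1g, the signalling chain shared by Fc receptors (chromosome 1, 173159703 to 173164480), stood at 0.988 and 1.06 FPKM in control and at 1.14 and 12.7 FPKM in DTA, 11.1-fold higher at day 5.

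Cd68, a lysosomal glycoprotein of phagocytes, stood at 0.982 and 1.52 FPKM in control and at 1.92 and 13.6 FPKM in DTA, 7.09-fold higher. Lyz2, a lysozyme of macrophages and neutrophils, stood at 1.09 and 0.269 FPKM in control and at 1.08 and 8.32 FPKM in DTA, 7.70-fold higher. Fcgr3, an IgG receptor, stood at 0.486 and 5.13 FPKM in DTA, just over the floor, and its call ended with a pseudocount of 5 (0.89) and under either scaling, where it fell below the floor.

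Phagocyte genes below the floor had the same direction. Itgb2, the beta chain of leukocyte integrins, stood at 0.296 and 2.34 FPKM in DTA, and Cd180, a Toll-like receptor homolog, at 0.210 and 2.14 FPKM. Ptprc, the leukocyte antigen CD45, stood at 0.0992 and 0.571 FPKM. Ly86, the protein partner of Cd180, which is in no list, stood at 1.01 and 1.09 FPKM in control and at 1.33 and 6.75 FPKM in DTA and was higher beyond the control change, except with a pseudocount of 5 (0.89). Markers of other leukocytes stayed low. Of 16 measured none reached 1 FPKM in any library, their summed level was 0.427 FPKM in DTA at day 1 and 3.05 at day 5, and Ctla4, Gzma and Gzmk were listed at 0 in all 4. The lists do not separate resident microglia from macrophages that enter the tissue.

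Of the CC chemokines on chromosome 11, Ccl2 and Ccl5 were higher at day 5. Ccl2, which attracts monocytes (chromosome 11, 81849079 to 81850954), had 0 FPKM in each control library and stood at 8.32 and 29.1 FPKM in DTA, 3.50-fold higher at day 5. Ccl5, which attracts T cells and monocytes (chromosome 11, 83339281 to 83344020), stood at 0.111 and 0.0777 FPKM in control and at 5.32 and 18.4 FPKM in DTA, 3.46-fold higher. Ccl7, a neighbour of Ccl2 on the chromosome, was at 0 in each control and stood at 1.05 and 4.31 FPKM in DTA, under the floor. Ccl12, by contrast, stood at 2.45 and 3.47 FPKM in DTA, a difference of 0.37. Of 16 chemokine and cytokine genes measured 2 were higher and none lower, and Ccl8 was listed at 0 in all 4 libraries.

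Of 38 interferon-stimulated genes listed 31 were measured in both DTA libraries, 10 reached the floor and 4 were higher beyond the control change, with a list median of 0.29 in DTA and 0.00 in control. None was lower. Irf1, a transcription factor induced early by interferon gamma (chromosome 11, 53583516 to 53591876), stood at 1.52 and 1.40 FPKM in control and at 27.5 and 30.9 FPKM in DTA, nearly level between the days. Rsad2, an antiviral enzyme, stood at 0.258 and 0.256 FPKM in control and at 5.12 and 3.29 FPKM in DTA, a difference of -0.51. Its neighbour Cmpk2, a mitochondrial nucleotide kinase, stood at 7.81 and 6.08 FPKM in DTA.

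The genes that were higher at day 5 were Igtp, Stat2, Irgm2 and Irgm1. Igtp, an immunity-related GTPase that acts on membranes around pathogens (chromosome 11, 58013058 to 58021094), stood at 1.94 and 1.85 FPKM in control and at 5.65 and 20.2 FPKM in DTA, 3.57-fold higher. Stat2, a subunit of the interferon-activated complex ISGF3 (chromosome 10, 127707632 to 127729905), stood at 7.24 and 8.25 FPKM in control and at 10.4 and 32.7 FPKM in DTA, 3.14-fold higher. Irgm2 and Irgm1, GTPases of the same family, stood at 4.22 and 10.3 FPKM and at 7.80 and 17.0 FPKM in DTA; both calls ended with a pseudocount of 5 (0.73 and 0.78) and under median ratio scaling (0.99 and 0.91), and that of Irgm1 also when sums without the 50 highest genes were made equal (0.97). Ifi27l2a, under the floor, stood at 0.5004 and 3.41 FPKM in DTA.

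Promoters of these genes are shown because 4 interferon-regulated members were called higher and because Serpina3n had the highest difference with a pseudocount of 1. The sequences are the 250 bases before the gene's start in RefSeq on build GRCm38.p6, 5′ to 3′ on the gene's strand, with capitals marking matches to the motifs searched on both strands: the interferon-stimulated response element (ISRE, a pair of GAAA repeats with any 2 bases between them), TTCNNNGAA for STAT, NF-kappa B (GGG and TTTCC with any 2 bases between them), TAATCC for CRX and CACGTG for the E-box.
Igtp: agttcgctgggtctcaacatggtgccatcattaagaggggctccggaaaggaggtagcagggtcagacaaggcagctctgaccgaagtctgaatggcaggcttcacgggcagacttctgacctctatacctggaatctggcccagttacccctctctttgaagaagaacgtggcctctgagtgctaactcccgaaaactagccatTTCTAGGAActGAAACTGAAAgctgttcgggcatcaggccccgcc
Irgm2: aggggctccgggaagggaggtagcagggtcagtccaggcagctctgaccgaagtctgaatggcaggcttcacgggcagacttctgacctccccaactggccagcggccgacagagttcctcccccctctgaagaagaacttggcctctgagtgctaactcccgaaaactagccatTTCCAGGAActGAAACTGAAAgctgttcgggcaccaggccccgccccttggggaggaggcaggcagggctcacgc
Irgm1: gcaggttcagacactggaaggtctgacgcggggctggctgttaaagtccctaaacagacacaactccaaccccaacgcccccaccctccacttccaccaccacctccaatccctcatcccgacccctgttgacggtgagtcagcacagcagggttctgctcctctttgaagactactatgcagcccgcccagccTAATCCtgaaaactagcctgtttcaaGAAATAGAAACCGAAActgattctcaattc
Stat2: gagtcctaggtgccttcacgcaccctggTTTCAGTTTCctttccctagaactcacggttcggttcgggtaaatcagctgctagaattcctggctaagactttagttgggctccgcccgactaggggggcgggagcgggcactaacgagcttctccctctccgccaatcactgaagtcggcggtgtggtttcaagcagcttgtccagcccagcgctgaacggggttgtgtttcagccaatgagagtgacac
Serpina3n: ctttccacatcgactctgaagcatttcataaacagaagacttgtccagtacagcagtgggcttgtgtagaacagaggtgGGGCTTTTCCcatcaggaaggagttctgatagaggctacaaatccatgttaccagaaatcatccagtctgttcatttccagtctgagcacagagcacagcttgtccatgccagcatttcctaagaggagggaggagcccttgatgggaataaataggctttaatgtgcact

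On GRCm38.p6 these windows lie at chr11:58199306-58199555 (plus strand) for Igtp, chr11:58214727-58214976 (plus) for Irgm2, chr11:48871421-48871670 (minus) for Irgm1, chr10:128270248-128270497 (plus) for Stat2 and chr12:104406458-104406707 (plus) for Serpina3n. Igtp and Irgm2 hold the same arrangement, a STAT match followed, after 2 bases, by GAAACTGAAA. This begins 34 bases before the start in Igtp and 64 bases before it in Irgm2. Their windows also share long stretches outside these matches, so the 2 genes are not separate counts of a motif in the shares below. Irgm1 holds GAAATAGAAA and GAAACCGAAA, which overlap and begin 30 and 24 bases before the start, and Stat2 holds TTTCAGTTTC, the motif on the other strand, 222 bases before it. Serpina3n holds GGGCTTTTCC, which begins 171 bases before its start. Of the 31 genes higher beyond the control change that have a promoter in the table, 5 held the ISRE motif (16.1%): Igtp, Irgm1, Irgm2, Stat2 and Lgals9. The calls of Irgm1, Irgm2 and Lgals9 ended under median ratio scaling. Over all 27025 genes of the table the share was 3.04%. The NF-kappa B motif was in 4 of the 31 (12.9%), against 1.40% of all, and the STAT motif in 3 (9.68%), against 7.18%. The CRX motif was in 4 of the 31 (12.9%) and in 2 of 26 lower genes (7.69%), against 6.38% of all. Among the 26 lower genes the ISRE and NF-kappa B motifs were each in 1 (3.85%) and the STAT motif in 2 (7.69%). The E-box was in 1 of the 31 (3.23%) and 3 of the 26 (11.5%), against 6.05% of all. These matches are a description of letters in a short window and not of binding.

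**Figure D3:**
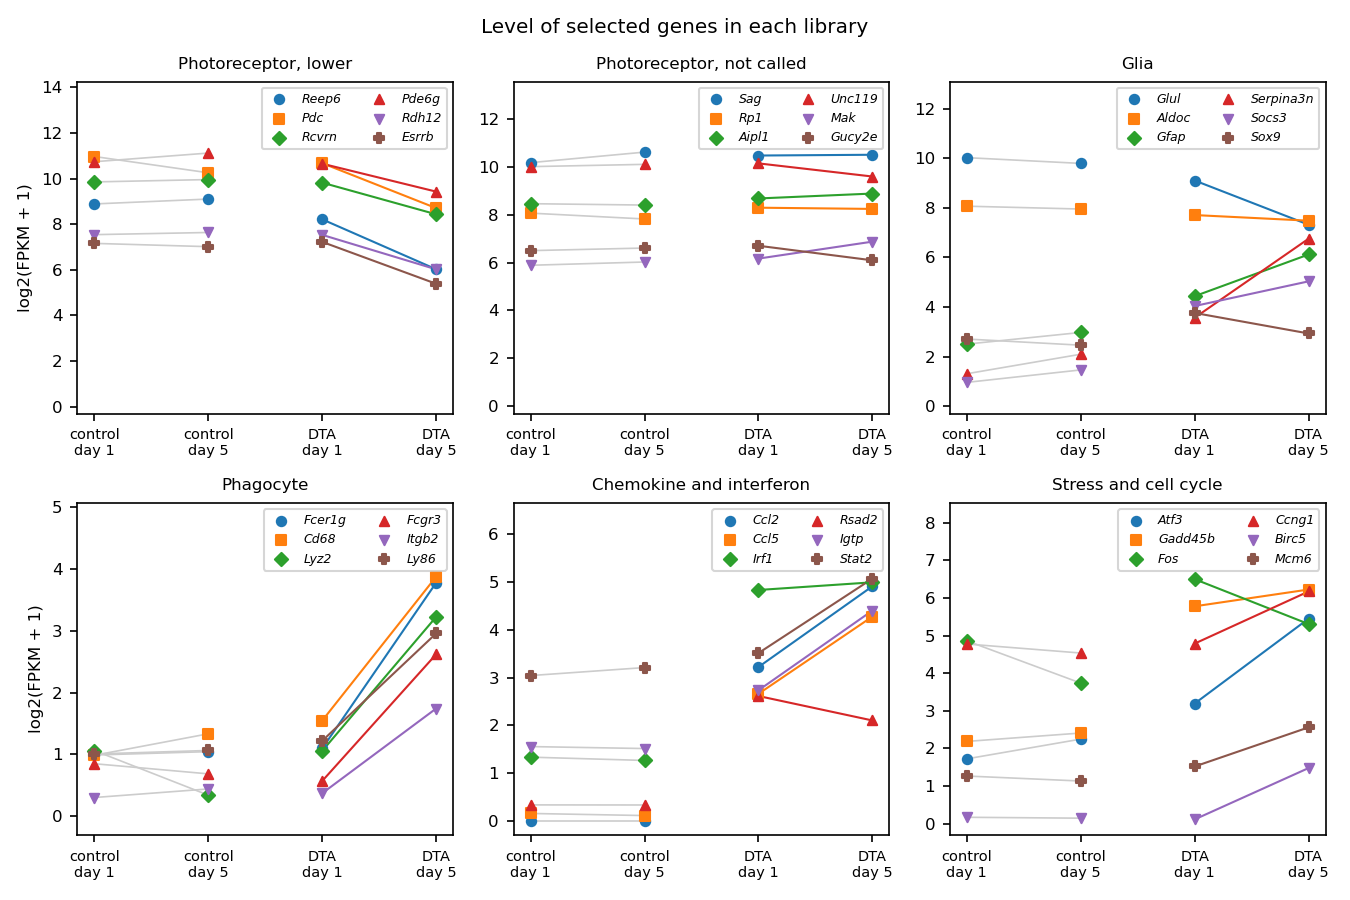
Level as log2(FPKM + 1) of 36 genes in each of the 4 libraries, in 6 panels, with lines joining day 1 and day 5 of a genotype (grey for control). The 6 phagocyte genes stand at 2 FPKM or less in DTA at day 1 and above that at day 5, while Irf1, Gadd45b and Socs3 stand far above control at day 1 already, and Sag, Rp1 and Aipl1 are nearly level where Reep6, Pdc and Rcvrn decline.

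No gene of the NF-kappa B and TNF list was called, but only 7 reached the floor. With 1.83% of all genes called higher and 2.17% lower, no call among 7 does not show an unchanged pathway. Of 11 measured, of 14 listed, the median was 0.26 in DTA and -0.09 in control. Nfkbia, the inhibitor that NF-kappa B itself induces, stood at 14.3 and 11.9 FPKM in control and at 21.6 and 30.3 FPKM in DTA, a difference of 0.47. Map3k14, the kinase NIK, stood at 4.69 and 4.33 FPKM in control and at 17.2 and 15.8 FPKM in DTA. Tnfaip2, under the floor, stood at 0.532 and 3.20 FPKM in DTA, a difference of 1.45. Complement was thinly covered: none of the 6 genes measured reached the floor, and their median of 0.01 turned to -0.03 under median ratio scaling.

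Genes of the p53 response were partly higher at day 5. Of 13 measured, of 15 listed, 2 were higher. The list median was 0.36 in DTA and -0.22 in control. Ccng1, cyclin G1, a p53 target (chromosome 11, 40562054 to 40568788), stood at 26.4 and 22.2 FPKM in control and at 26.6 and 71.2 FPKM in DTA, 2.67-fold higher at day 5 and at control level at day 1. Phlda3, a p53 target that restrains AKT, stood at 3.88 and 3.41 FPKM in control and at 7.27 and 18.4 FPKM in DTA, 2.53-fold higher, though its difference was 0.93 with a pseudocount of 5. Mdm2, the ubiquitin ligase of p53, stood at 20.03 and 34.5 FPKM in DTA, a difference of 0.76. Gadd45b, a growth arrest gene, stood at 3.56 and 4.32 FPKM in control and at 54.0 and 73.9 FPKM in DTA. Its relative Gadd45g stood at 9.73 and 6.48 FPKM in control and at 31.2 and 18.7 FPKM in DTA. The differences of Gadd45g were -0.52 in control and -0.71 in DTA.

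Atf3, a stress-induced transcription factor in both the stress response and immediate early lists (chromosome 1, 192994176 to 193007212), stood at 2.30 and 3.76 FPKM in control and at 8.16 and 42.7 FPKM in DTA, 5.24-fold higher at day 5. No other stress response gene was called. Ddit3, the factor CHOP, stood at 53.2 and 81.0 FPKM in DTA, a difference of 0.60, and Xbp1 and Ddit4 had differences of -0.05 and -0.11. Fos, an AP-1 subunit, went the other way at 28.1 and 12.4 FPKM in control and 89.6 and 38.6 FPKM in DTA, with nearly the same difference in DTA (-1.19) and in control (-1.12). Egr2, a zinc finger factor, stood at 0.0617 and 0.0277 FPKM in control and at 4.23 and 5.82 FPKM in DTA, and Klf6 at 10.2 and 16.5 FPKM in DTA. Their differences between the days were 0.38 and 0.64.

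No clock gene was called between the days, but only 6 reached the floor. With 1.83% of all genes called higher and 2.17% lower, no call among 6 does not show an unchanged clock. Nr1d1, the repressor REV-ERB alpha, stood at 102 and 112 FPKM in control and at 379 and 438 FPKM in DTA. Cry1 stood at 16.9 and 13.995 FPKM in control and at 33.5 and 38.4 FPKM in DTA. The 8 clock genes measured had a median of 0.19 in DTA and -0.10 in control, and Per1 had no estimate in DTA at day 5. The labels do not give the hour of collection.

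Cell cycle genes stood at low levels, and all 21 measured had differences above 0 in DTA (59.6% of all genes did), against 7 of 21 in control. The median was 0.48 in DTA and -0.01 in control. Of these only Pttg1 reached the floor, and none was called. Birc5, survivin, stood at 0.126 and 0.108 FPKM in control and at 0.0828 and 1.79 FPKM in DTA. Top2a, the topoisomerase of dividing cells, stood at 0.00363 and 0.775 FPKM in DTA, and Mcm6, a subunit of the replicative helicase, at 1.87 and 4.90 FPKM. Which cells carry these transcripts was not measured. Microglia and macrophage markers were higher in the same library, as given above. Of 13 retinal progenitor factors measured 7 reached the floor and none was called, and the median was -0.12 in both genotypes.

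Inner retinal neurons had no gene called, but few of their markers reached the floor: 6 bipolar, 2 amacrine, 2 horizontal and 3 ganglion cell markers. Of all genes at the floor 1.83% were called higher and 2.17% lower in DTA. The absence of calls among so few markers therefore does not show that these cells were unchanged. Bipolar markers had a median of -0.09 in DTA and -0.29 in control (6 measured), with Prkca, the kinase of rod bipolar cells, at 49.0 and 33.8 FPKM in DTA and Grm6, their glutamate receptor, at 32.6 and 27.6 FPKM. Amacrine markers had a median of -0.26 in DTA and -0.05 in control (4 measured). Horizontal markers had a median of -0.53 in DTA and -0.16 in control (3 measured). Among the latter Sept4 stood at 76.2 and 66.5 FPKM in control and at 60.5 and 36.9 FPKM in DTA. Prox1, which is in both lists, stood at 34.4 and 30.7 FPKM in control and at 35.5 and 24.2 FPKM in DTA. Ganglion cell markers had a median of 0.06 in DTA and 0.26 in control (5 measured). The DTA median turned to -0.07 under median ratio scaling and to -0.01 when sums without the 50 highest genes were made equal. Nefh, a neurofilament of ganglion cell axons, stood at 17.9 and 30.7 FPKM in DTA and at 23.7 and 31.1 FPKM in control.

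**Figure D4:**
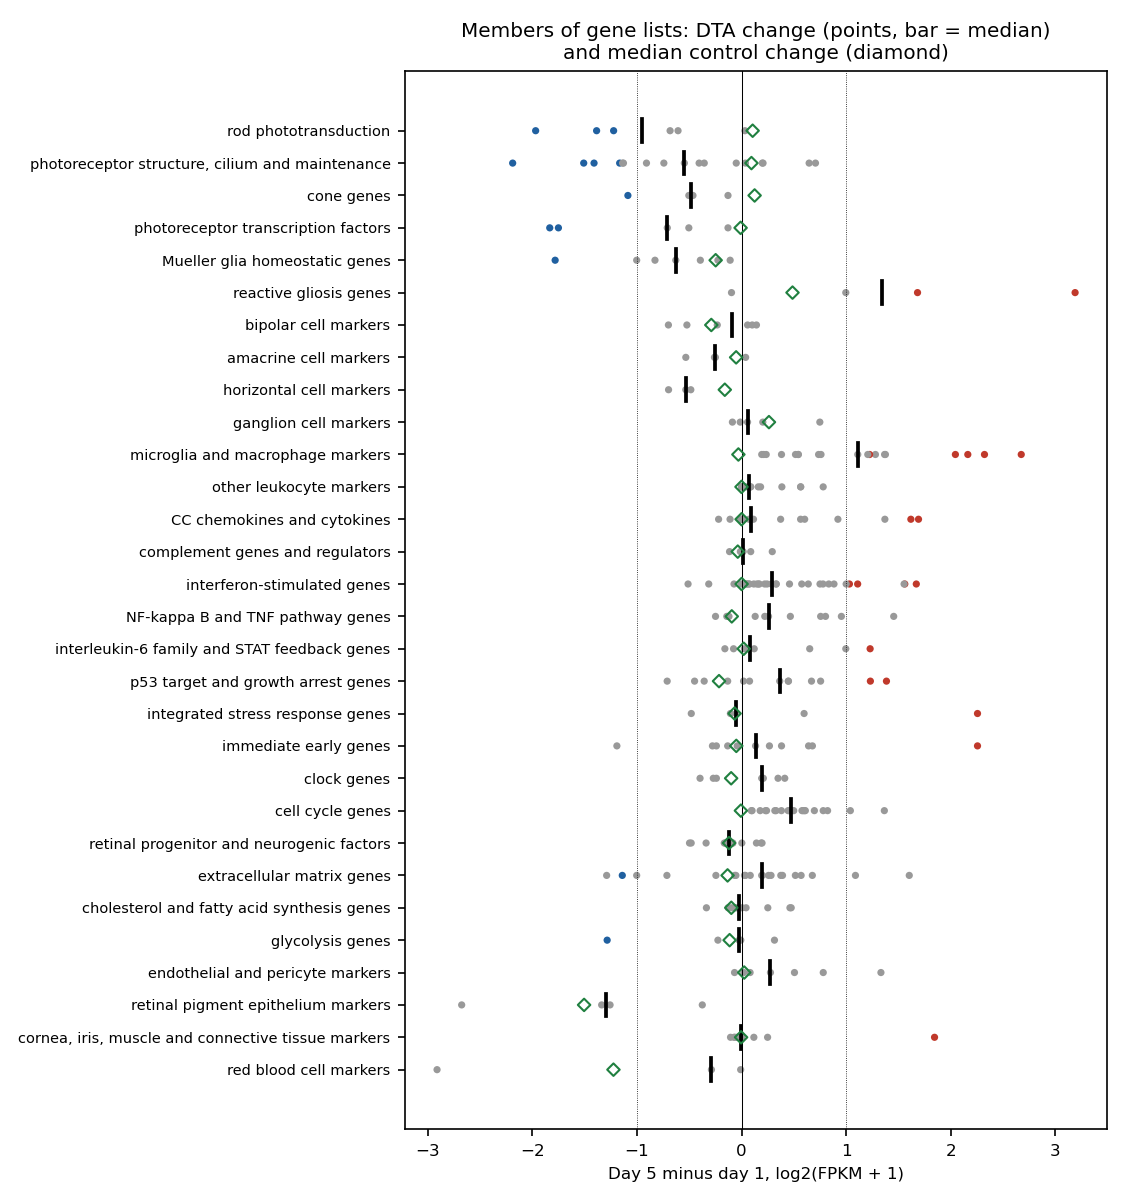
Difference between day 5 and day 1 of log2(FPKM + 1) in DTA for each measured member of 30 gene lists (points, red or blue where called beyond the control change), with the list median (black bar) and the median of the same members in control (open diamond). The medians of the 4 photoreceptor lists lie left of 0 and those of the microglia and reactive gliosis lists right of 0, with single members on the other side in some, and the pigment epithelium median is further left in control than in DTA.

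Among matrix genes 1 was called beyond the control change, among glycolysis genes 1, and among genes of lipid synthesis and the toxin pathway none. Igfbp2, an insulin-like growth factor binding protein, stood at 13.2 and 12.9 FPKM in control and at 37.8 and 16.6 FPKM in DTA, so it was above control at day 1 and close to it at day 5; it lost its call with a pseudocount of 5 (-0.99). Ctgf, connective tissue growth factor, stood at 19.3 and 7.28 FPKM in DTA and at 9.33 and 7.24 FPKM in control. Fn1, fibronectin, stood at 5.79 and 13.4 FPKM in DTA, a difference of 1.09, and at 4.59 and 5.79 FPKM in control. Ctgf and Fn1 were not called beyond the control change, though Ctgf was with a pseudocount of 0.1 and under both scalings. Pfkfb2, which makes the activator of phosphofructokinase, stood at 99.7 and 87.0 FPKM in control and at 74.7 and 30.04 FPKM in DTA, and it was the only glycolysis gene called (its locus overlaps Yod1), and with a pseudocount of 5 its excess over control fell just short of the rule. None of 10 genes of cholesterol and fatty acid synthesis was called, with differences from -0.34 for Idi1 to 0.47 for Acaca. Eef2, the elongation factor that diphtheria toxin inactivates, stood at 304 and 369 FPKM in control and at 279.8 and 339 FPKM in DTA, the same difference of 0.28 in both genotypes. Egfr stood at 3.02 and 2.43 FPKM in DTA.

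Of the 78 genes called beyond the control change, 38 are in none of the lists. Those with the largest positive differences include Kremen1, Chi3l1, Madcam1 and Lad1. Kremen1, a receptor for Dickkopf inhibitors of Wnt signalling, stood at 9.98 and 9.64 FPKM in control and at 8.99 and 36.8 FPKM in DTA, 4.09-fold higher at day 5. Chi3l1, a chitinase-like glycoprotein secreted by reactive astrocytes and macrophages, stood at 7.67 and 5.77 FPKM in control and at 7.43 and 34.6 FPKM in DTA, 4.66-fold higher. Both were at control level at day 1. Madcam1, an adhesion molecule that binds leukocyte integrins, stood at 0.463 and 5.48 FPKM in DTA and Lad1, an anchoring filament protein, at 1.90 and 9.35 FPKM, and both calls ended with a pseudocount of 5. That of Madcam1 also ended under median ratio scaling, where it fell below the floor. Tnnt2, cardiac troponin T, from the list of muscle and connective tissue, stood at 1.07 and 6.44 FPKM in DTA, while the other 13 measured members of that list were below 1 FPKM in both DTA libraries; its call ended with a pseudocount of 5 as well (0.91).

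More abundant genes of this kind were Agtpbp1 and Nme2. Agtpbp1, a carboxypeptidase that trims polyglutamate from tubulin and whose loss causes photoreceptor degeneration in mice, stood at 32.6 and 35.1 FPKM in control and at 46.2 and 134 FPKM in DTA. Nme2, a nucleoside diphosphate kinase, stood at 23.8 and 26.0 FPKM in control and at 37.3 and 107 FPKM in DTA. Grn, progranulin, a lysosomal protein rich in microglia, stood at 12.9 and 11.7 FPKM in control and at 11.3 and 25.9 FPKM in DTA, and Cxcl16, a membrane-bound chemokine whose locus overlaps Zmynd15, at 3.95 and 10.2 FPKM in DTA. Grn and Cxcl16 were thus below both controls at day 1 and above both at day 5, and both calls ended with a pseudocount of 5 (0.92 and 0.76).

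Among lower genes outside the lists, Hist1h1c, a linker histone, stood at 64.6 and 69.9 FPKM in control and at 51.6 and 13.0 FPKM in DTA, 3.96-fold lower at day 5. Susd3, a sushi domain protein, stood at 85.1 and 90.7 FPKM in control and at 84.1 and 28.7 FPKM in DTA, and Arl4d, a small GTPase, at 100.4 and 81.3 FPKM in control and 78.8 and 26.0 FPKM in DTA. Ppp1r1b, the phosphatase inhibitor DARPP-32, stood at 7.65 and 4.66 FPKM in control and at 19.1 and 5.18 FPKM in DTA, so its day 1 level was the one that stood apart; its call ended with a pseudocount of 5. Vtn, vitronectin, stood at 299.7 and 397 FPKM in control and at 294 and 146 FPKM in DTA, a call that a pseudocount of 5 took just below the rule (-0.99). Pisd-ps1, a pseudogene whose locus overlaps Pisd-ps3 and Sfi1, stood at 5.12 and 0.0470 FPKM in DTA, and its fragments cannot be assigned with certainty; its call ended with a pseudocount of 5 and when sums without the 50 highest genes were made equal.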

How the data were processed

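Whole-retina mRNA libraries were made with an Illumina kit, per the labels' protocols. The deposited values are FPKM per gene with confidence bounds and a status, per the file headers. Cufflinks 2.1.1, CASAVA 1.8.2, bcl2fastq 1.8.4 and build mm9 are named, without roles, per the submitters' processing notes. Aligner and annotation: not given in the sources used here. One file, for DTA at day 1, holds 5847 lines, the others 23021; its FPKM were used as deposited, assuming normalization over the whole library. Lines of status FAIL or HIDATA were read as missing (10 and 4 genes in DTA at day 1 and day 5, 9 and 2 in control). FPKM were summed over loci for 36 symbols, using only loci in the day 1 DTA file, which affects 4 genes. In 23.8% of lines of DTA at day 1 the deposited upper bound lies below the FPKM, so bounds serve one alternative and the half-widths only.

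Differences were computed in Python 3.11.15 with pandas 2.3.3, and the calling step was tested on simulated data. Starts printed have 1 added (2604 of 5595 loci then match the GENCODE start, 177 without). Promoters are RefSeq entries, first start per symbol. Depth was estimated from low FPKM times the length of single-transcript genes.

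Named genes were the 15 largest differences each way beyond the control change, up to 4 per list and 18 fixed by name, of which Rbp3 is not in the day 1 DTA file; others were chosen after their values were seen, as were the promoters shown other than that of Serpina3n. Promoters of Rangrf, Crygc and Cryge, also taken by the rule, are not shown. The members and the 34 lists (496 genes, 317 of them measured) were chosen with earlier results of these data known. Results for a few genes are not reported here.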

Additional observations from a re-analysis of the deposited data

Results flagged for a closer look

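One pair of overlapping genes was listed with opposite differences in the 2 genotypes, which was not tested. Rangrf, a Ran-binding protein, had a difference between day 5 and day 1 of 3.03 in DTA and -3.48 in control. Gm4535, a gene model in the same place on chromosome 11, had -3.72 in DTA and 3.49 in control. Rangrf stood at 11.8 FPKM in control at day 1, 0.149 in control at day 5, 0.0368 in DTA at day 1 and 7.45 in DTA at day 5, and Gm4535 at 0.0163, 10.4, 12.5 and 0.0210 FPKM in the same order. Each library thus lists 1 of the 2 genes near 0, and their sum was 11.8, 10.6, 12.5 and 7.47 FPKM. How fragments were shared between the 2 is uncertain, so neither gene's difference can be read alone. Rangrf is counted among the 40 higher genes beyond the control change and Gm4535 among the 38 lower. Slc25a35, which overlaps both, stood at 9.36 and 3.74 FPKM in DTA.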

How the results depend on the processing

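Each group has 1 library, so no result has an error between mice, and no library could be left out. No paired analysis was possible because each group has a single library. With a pseudocount of 5, 23 genes were higher in DTA and 20 beyond the control change, in place of 48 and 40. A floor of 1 FPKM, like no floor, gave 85 and 72 higher. With small RNA symbols kept, 73 genes were higher and 94 lower in DTA, 64 lower beyond the control change, and 30 higher and 59 lower in control. Reading low data lines as missing left 2 higher in control, and leaving out the lists of lens, pigment epithelium, red blood cells and other adjoining tissue, an alternative chosen after seeing the data, left 18 lower in control in place of 30, and 39 higher and 29 lower beyond the control change in DTA. Each alternative changes the genes or the scale counted, and the cause of these shifts was not tested. Other counts stayed within 1.5 times. Of all 78 genes called beyond the control change, 46 were called under every pseudocount, scaling, low data and locus alternative, and no difference of a called gene changed sign. The list medians of ganglion cell markers (0.06) and complement genes (0.01) changed sign under both scalings (-0.07 and -0.01; -0.03 and -0.01), and that of cornea, iris, muscle and connective tissue markers went from just below 0 to 1.85 when only members at 1 FPKM or more, that is Tnnt2 alone, were kept. The depth of DTA at day 5, about 28800000 fragments, puts 1 fragment on a transcript of 1 kilobase at 0.0347 FPKM, against 0.0101 in DTA at day 1.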

Other observations

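Other gene families, picked by symbol after the values were seen, had few called genes between the days. For reference, 59.6% of all genes and 67.8% of those at the floor had a difference above 0 in DTA, and the median at the floor was 0.14, or 0.02 under median ratio scaling. All 16 genes with Psm symbols (proteasome) were above 0 in DTA, against 3 of 16 in control. Their differences in DTA ran from 0.02 to 0.47, the medians were 0.17 and -0.11, and none was called. Genes with symbols of oxidative phosphorylation (Nduf, Cox with a digit, Uqc or Atp5) had a median of 0.00 in DTA and -0.21 in control. None of these 26 genes was called. Of 25 genes with Rpl or Rps symbols (cytosolic ribosome) 23 were above 0 in DTA (median 0.18). Only 1 of them, Rpl26, was called lower, at 18.9 and 5.01 FPKM in DTA. Its control levels of 12.4 and 6.61 FPKM kept it from being called beyond the control change except under both scalings.

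Of 53 histone genes of cluster 1 on chromosome 13, 44 were above 0 in DTA and 41 in control, with medians of 0.27 and 0.09, and Hist1h1c was the only one called. The copies of this cluster are near-identical in places, and many of their transcripts lack a poly(A) tail. All 11 genes of the Serpina3 cluster were above 0 in DTA and in control, with medians of 0.89 and 0.04; Serpina3n alone reached the floor, and these paralogs are similar in sequence, so how fragments were shared among them is uncertain.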
